A study of Mus musculus with 30 samples.

Results

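The Fanconi anemia pathway genes examined here are Fanca, Fancb, Fancc, Fancd2, Fance, Fancf, Fancg, Fanci, Fancl and Fancm, chosen by gene symbol. All 10 were found among the 46078 genes of the RNA count table. Their RNA was measured in C2C12 cells, an established line of mouse myoblasts, the dividing precursors of muscle fibres. The cells were in the growing state in medium with 20% fetal bovine serum, were stained for 15 min with Hoechst 33342, a dye that binds DNA, and were separated on a cell sorter into G1, S and G2-M fractions. The 3 groups therefore share the line, the medium and the stain and differ in the sorted phase. The sample titles of the S group alone carry a lot mark, and in any comparison with S the lot and the phase cannot be told apart. RNA-seq gave 6 columns of values, 2 per phase, and the other 24 of the 30 samples are ChIP-seq and are not analysed here. The comparison asks how the RNA of each gene differs between phases of the cell cycle.

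The Fanconi anemia pathway repairs interstrand crosslinks, lesions that tie both strands of DNA together and block a replication fork. Fancm and its partners recognise the stalled fork and anchor a core complex, which holds the ubiquitin ligase subunit Fancl with Fancb and Faap100, a module of Fanca, Fancg and Faap20, and a module of Fancc, Fance and Fancf. With the conjugating enzyme Ube2t the core complex attaches a ubiquitin to the paired proteins Fancd2 and Fanci, which then clamp DNA and bring in nucleases, translesion polymerases and homologous recombination proteins. Usp1 with Wdr48 removes the ubiquitin when repair ends. The pathway works mainly while DNA is being copied. In people, inherited loss of such a gene causes Fanconi anemia, with bone marrow failure and a raised risk of cancer.

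Each column held 16109055 to 18103769 fragments assigned to genes. The paired columns of a phase had a chi-square over degrees of freedom of 1.00, 1.03 and 1.15 in G1, S and G2/M, where counting noise alone gives about 1. Most of the excess in G2/M came from the gene model Gm17082, without which the value was 1.04. Nothing in the labels says that the columns came from separate cultures. They were summed and counted as 1 library per phase. No difference between phases therefore has a replicate check, no p-values are given, and every interval is an exact 95% interval that covers counting error only. Levels are in CPM, a gene's fragments relative to the size of its library, after TMM scaling between libraries. In bulk RNA, fewer cells that express a gene and less RNA per cell cannot be told apart. The 6 myoblast markers together stood at 6118, 5122 and 6209 CPM in the G1, S and G2/M libraries, of which Vim, a filament gene of many cell types, held 5576, 4640 and 5656 CPM. The muscle factor Myf5 stood at 66.0, 126.1 and 127.9 CPM, and Myod1 was low, at 6.64, 6.08 and 5.73 CPM. Of 15 markers of other cell types, 10, 10 and 11 were at 0 in those libraries. The tubulin Tubb3 held nearly all of their sum, and without it the sum was 5.83, 8.68 and 1.16 CPM. Most of that remainder in G1 was the leukocyte marker Cd68, at 5.27 CPM in G1 and 0 in G2/M. In S most was Pdgfra, a marker of mesenchymal progenitors, at 6.17 CPM in S and 0 in G1. The phase labels were looked at with genes of S-phase entry and DNA synthesis and with genes of mitosis. The cyclin Ccnb1 stood at 74.3, 242.4 and 390.3 CPM in G1, S and G2/M, and Cdc20, an activator of anaphase, at 104.2, 89.9 and 205.2 CPM. Summed over the 7 mitotic genes checked, the level was 333.5, 938.1 and 1750.8 CPM. Cdc6, which loads the replicative helicase, stood at 140.3, 11.2 and 24.2 CPM, and the S-phase entry cyclin Ccne2 at 85.6, 16.6 and 20.8 CPM. The 6 genes of S-phase entry and DNA synthesis that were checked summed to 888.2, 269.0 and 318.3 CPM. The library labelled S thus held less RNA of these genes than the library labelled G1. What this says of the phase labels was not tested. Its part in the ratios of the Fanconi anemia genes was not tested either.

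The stretches of DNA just before the start sites were read first, because genes of the cell cycle often carry E2F sites or CCAAT boxes there, bound by E2F factors and by the factor NF-Y. RefSeq on GRCm38.p6 gave the 250 bases upstream of the start for 9 of the 10 genes, all but Fancd2. A subset of 5 is printed 5′ to 3′ on the strand of the gene, with matches to an E2F site (TTNNCGC with each N a C or a G, either strand) or a CCAAT box (CCAAT, either strand) in capitals. Fanca (chr8:123318577-123318826, minus strand), Fancb (chrX:164980342-164980591, plus strand), Fance (chr17:28313280-28313529, plus strand) and Fanci (chr7:79392088-79392337, plus strand) are shown because they were at least 2-fold lower in G2/M than in S or G1. Fancm (chr12:65075353-65075602, plus strand) is shown because it holds a pair of E2F matches and was less than 2-fold apart in every comparison.
Fanca: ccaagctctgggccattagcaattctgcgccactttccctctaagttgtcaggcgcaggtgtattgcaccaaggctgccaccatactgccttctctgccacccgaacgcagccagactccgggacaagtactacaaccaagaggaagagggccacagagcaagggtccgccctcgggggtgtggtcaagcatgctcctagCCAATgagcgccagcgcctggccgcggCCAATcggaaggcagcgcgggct
Fancb: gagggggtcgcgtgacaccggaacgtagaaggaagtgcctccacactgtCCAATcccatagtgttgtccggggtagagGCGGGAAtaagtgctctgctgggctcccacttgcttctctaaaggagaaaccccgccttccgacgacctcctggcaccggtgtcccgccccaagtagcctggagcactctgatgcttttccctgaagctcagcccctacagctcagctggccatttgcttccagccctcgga
Fance: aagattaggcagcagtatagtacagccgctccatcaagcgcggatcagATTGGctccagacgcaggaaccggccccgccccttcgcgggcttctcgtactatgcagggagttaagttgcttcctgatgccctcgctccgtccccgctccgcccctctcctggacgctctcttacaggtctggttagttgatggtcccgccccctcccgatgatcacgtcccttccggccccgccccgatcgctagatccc
Fanci: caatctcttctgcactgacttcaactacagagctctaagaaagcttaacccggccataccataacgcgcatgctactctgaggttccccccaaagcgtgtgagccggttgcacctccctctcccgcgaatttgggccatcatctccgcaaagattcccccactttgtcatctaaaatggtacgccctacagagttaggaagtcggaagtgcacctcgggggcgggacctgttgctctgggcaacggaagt
Fancm: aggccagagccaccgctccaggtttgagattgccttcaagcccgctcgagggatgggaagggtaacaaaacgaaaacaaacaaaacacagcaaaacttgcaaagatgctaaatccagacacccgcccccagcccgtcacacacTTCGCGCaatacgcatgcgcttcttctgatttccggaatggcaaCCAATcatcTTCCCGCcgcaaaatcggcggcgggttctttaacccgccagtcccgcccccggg

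In the Fanca window both CCAAT matches lie within 50 bases of the start. The Fancb window holds an E2F match that begins 172 bases before the start and a CCAAT match that begins 201 bases before it. The Fance window has a single CCAAT match, and the Fanci window has neither motif. In Fancm the E2F matches begin 107 and 54 bases before the start, on either side of a CCAAT match at 63. Among all 9 windows an E2F match was found in 4, those of Fancb, Fancf, Fancg and Fancm, against 7.89% of the 32851 RefSeq windows of the same length. A CCAAT match was found in 6 of 9 against 33.8% of all windows, and in Fancf one of them overlaps the E2F match. The GC box GGGCGG, a site of Sp1, matched in 5 of 9 against 32.7%, and the cell cycle homology region TTTGAA, known from genes of late cell cycle phases, in 0 of 9 against 15.99%. The windows had a median of 56.4% G and C against 52.4% over all windows. These are matches of letters and not measured binding. The start used by RefSeq lay at the edge of the gene in the count table for Fanca, Fancb, Fance and Fancf, 3 bases from it for Fancm, 205 for Fancg, 409 for Fanci, 949 for Fancl and 65533 for Fancc.

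**Figure D1:**
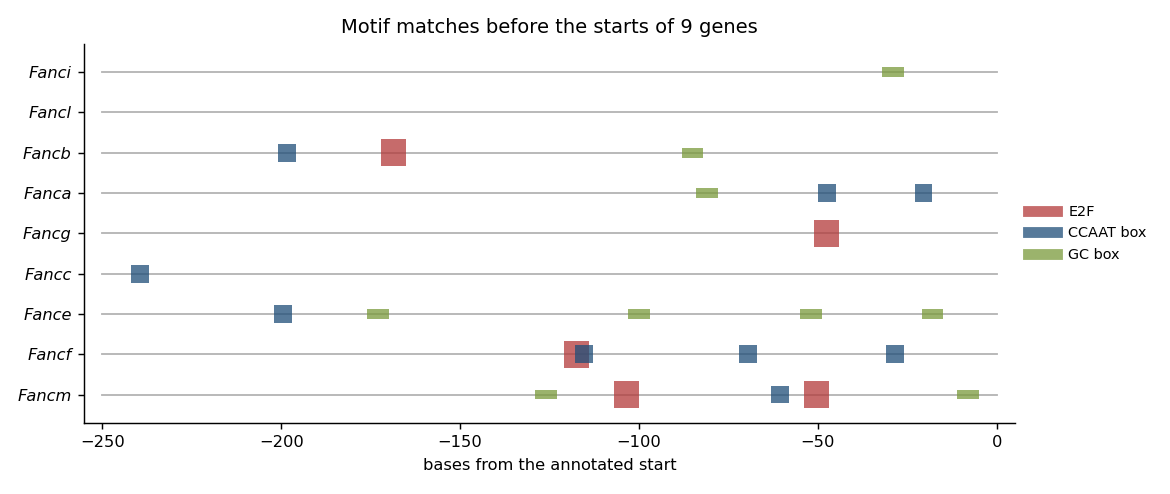
Motif matches in the 250 bases before the RefSeq start of 9 of the genes; the horizontal axis is the distance from the start in bases and each box is a match to an E2F site, a CCAAT box or a GC box on either strand. Matches to E2F lie in 4 genes, to CCAAT in 6 and to a GC box in 5, and Fancl carries none of them.

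The mean level over the phases ran from 2.33 CPM for Fancg to 29.95 CPM for Fance, with a median of 20.7 CPM. Of all genes measured in a comparison, 36.8% had a lower mean than Fance. Per kilobase of exon, the scale on which genes can be compared, the mean level over the phases was 9.41 CPM for Fance, 7.08 for Fancb, 3.98 for Fanci, 3.54 for Fancd2, 3.34 for Fancf, 3.12 for Fancl, 2.93 for Fancm, 2.39 for Fanca, 1.88 for Fancc and 0.61 for Fancg. From Fance down to Fancc the ranges over the phases of each neighbouring pair overlapped, so the order of neighbours is not firm. The lowest phase of Fance (5.40 CPM per kilobase in G2/M) lay above the highest phase of every other member but Fancb. Fancg stood apart, since its highest phase (0.90 CPM per kilobase in G1) lay below the lowest phase of Fancc (1.17, also in G1). Summed over the 10 genes, the level was 177.1, 230.5 and 128.2 CPM in G1, S and G2/M. The highest level was in S for 7 genes, in G1 for 3 and in G2/M for 0. The same shares over all genes were not counted, so neither the counts nor the sums set these genes apart from others. These counts include Fancf and Fancg, under 10 CPM in every phase, and Fancb and Fance, which were nearly level between G1 and S.

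**Figure D2:**
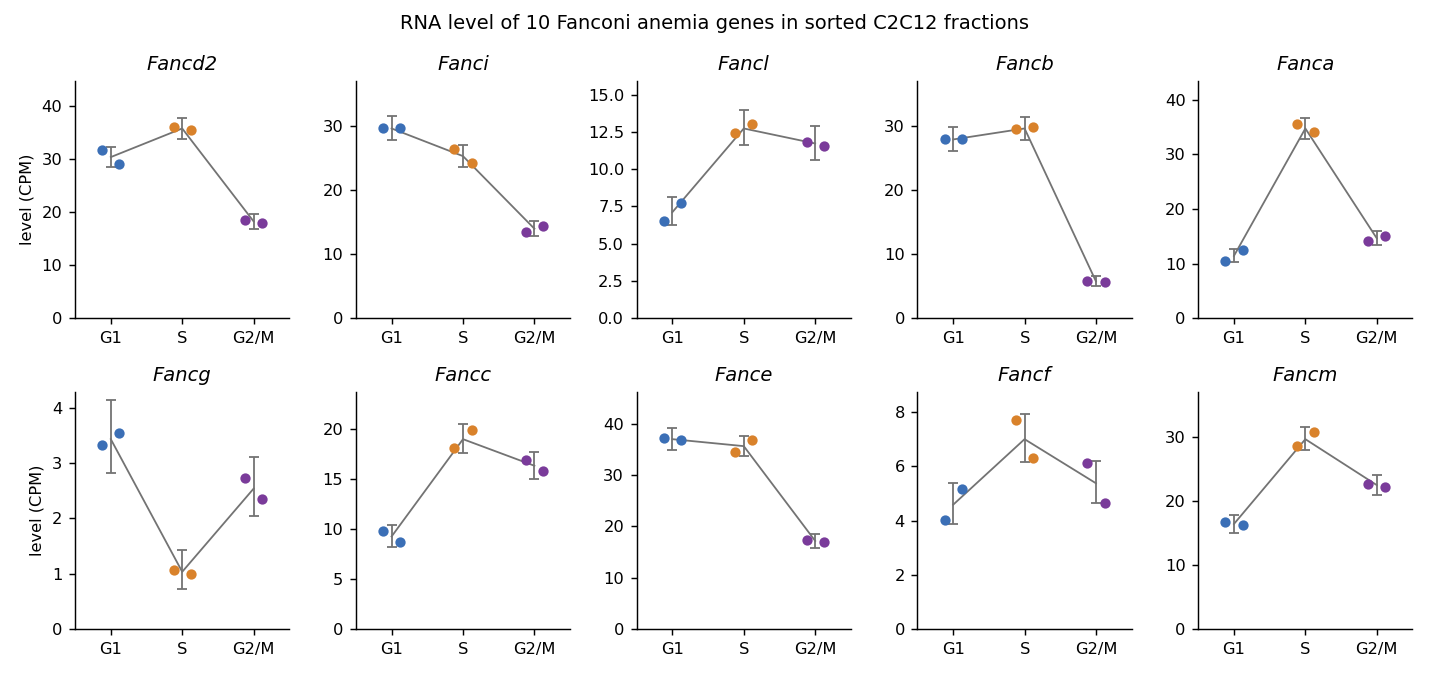
Level of each gene in CPM (vertical axis, from 0, scaled per gene) in the G1, S and G2/M libraries; points are the 2 columns of a phase, the line joins the summed libraries and bars are exact 95% intervals for counting error. Fanca is far higher in S than in the other phases, Fancb, Fance, Fancd2 and Fanci are lowest in G2/M, and Fancc, Fancl, Fancf and Fancm are lowest in G1.

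Fancd2 and Fanci, which form the clamp that the core complex ubiquitinates, were both lowest in G2/M. Fancd2 (chromosome 6 from 113531682 to 113597017, GRCm38) had 505 and 469 fragments in the G1 columns, 640 and 642 in those of S and 332 and 330 in those of G2/M. The columns of the phases did not overlap, with S highest and G2/M lowest. Its level of 35.8 CPM in S was 1.96-fold that of 18.3 CPM in G2/M, or -0.97 on the log2 scale for G2/M against S (interval -1.11 to -0.83). Against the 30.4 CPM of G1 the G2/M level gave a log2 ratio of -0.74, and S gave 0.24. Fancd2 came just short of the 2-fold mark in G2/M.

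Fanci (chromosome 7 from 79391929 to 79450265) had 473 and 477 fragments in G1, 469 and 438 for S, and 243 and 264 for G2/M. Both G2/M columns lay far below the others. In CPM the G1 and S columns did not overlap either, with G1 slightly higher at 29.6 CPM against 25.3. The G2/M level of 14.0 CPM was 2.12-fold lower than in G1, a log2 ratio of -1.08 (interval -1.24 to -0.93), and gave -0.86 (interval -1.02 to -0.70) against S. Partners in the clamp thus had their highest level in different phases, S for Fancd2 and G1 for Fanci, though their log2 ratios of S to G1 were small at 0.24 and -0.23.

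Of the catalytic module, Fancb (chromosome X from 164980592 to 164997272) showed the largest difference of the measured members. It is a scaffold that holds Fancl in the core complex. It had 446 and 450 fragments in G1, 525 and 538 for S, and 106 and 103 for G2/M. The level was alike in G1 and S, 27.9 and 29.7 CPM, and the log2 ratio of 0.09 had an interval that includes 0, from -0.04 to 0.22. In G2/M its level of 5.76 CPM was 5.15-fold lower than in S, with a log2 ratio of -2.36 (interval -2.58 to -2.15), and 4.85-fold lower than in G1, with -2.28 (interval -2.50 to -2.06).

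Fancl, the subunit that carries the ubiquitin ligase activity (chromosome 11 from 26386135 to 26471876), took another course. It had 104 and 124 fragments in G1, 221 and 235 for S, and 213 and 212 for G2/M. G1 was low and the other phases were close together, at 7.11, 12.7 and 11.7 CPM. The log2 ratio of S to G1 was 0.84 (interval 0.61 to 1.08) and that of G2/M to G1 was 0.72 (interval 0.49 to 0.96), while G2/M against S gave -0.12 with an interval of -0.31 to 0.07 that includes 0. Faap100, the remaining subunit of the module, stood at 14.1, 10.4 and 17.1 CPM in G1, S and G2/M and was less than 2-fold apart in each comparison.

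Fanca, the largest subunit of its module and the gene most often mutated in patients (chromosome 8 from 123268300 to 123318576), was at least 2-fold higher in S than in both other phases, the only measured member to be so. It had 166 and 200 fragments in G1, 631 and 614 for S, and 256 and 275 for G2/M. Both S columns stood far above all others, and G2/M lay a little above G1. At 34.7 CPM in S it was 3.04-fold higher than the 11.4 CPM of G1, a log2 ratio of 1.61 (interval 1.44 to 1.78), and G2/M at 14.6 CPM was 2.37-fold lower than S, a log2 ratio of -1.25 (interval -1.40 to -1.10). G2/M against G1 gave 0.36 (interval 0.16 to 0.56).

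Fancg, which binds Fanca directly (chromosome 4 from 43002343 to 43010506), had the lowest level of the genes, also per kilobase. It had 53 and 57 fragments in G1, 19 and 18 for S, and 49 and 43 for G2/M. It was the only member lowest in S, opposite to Fanca, at 3.43, 1.03 and 2.54 CPM. The log2 ratio of S to G1 was -1.73 (interval -2.31 to -1.18) and that of G2/M to S was 1.30 (interval 0.73 to 1.89). Since it stayed under 10 CPM in every phase it was not counted as measured: among genes with a mean of 1 to 5 CPM, 70.2% were at least 2-fold apart between S and G1. Faap20, the small remaining subunit of the module, stood at 6.99, 10.4 and 7.66 CPM, less than 2-fold apart in each comparison.

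Fancc, Fance and Fancf, the module that helps bring Fancd2 to the ligase, did not share a course. Fancc (chromosome 13 from 63304709 to 63497278) had 156 and 140 fragments in G1, 321 and 358 for S, and 303 and 288 for G2/M. Its G1 columns were the low ones, and the S columns lay a little above those of G2/M. At 18.9 CPM in S it was 2.05-fold higher than the 9.23 CPM of G1, or 1.04 on the log2 scale (interval 0.84 to 1.24, which reaches under the 2-fold mark). With the first column of each phase alone the ratio was 0.89, under 2-fold. G2/M, at 16.3 CPM, gave 0.82 against G1 and -0.22 against S.

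Fance, whose protein contacts Fancd2 (chromosome 17 from 28313530 to 28326568), had 595 and 592 fragments in G1, 612 and 666 for S, and 313 and 310 for G2/M. In CPM the columns of G1 and S overlapped, and both G2/M columns were lower by about the 2-fold mark. The levels were 37.0, 35.7 and 17.2 CPM in G1, S and G2/M, and S against G1 gave -0.05 with an interval of -0.17 to 0.06 that includes 0. G2/M was 2.16-fold lower than G1, with a log2 ratio of -1.11 (interval -1.25 to -0.97), and 2.08-fold lower than S, with -1.05 (interval -1.19 to -0.91). With the first column of each phase alone the ratio to S was -0.99, just under 2-fold.

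Fancf, an adaptor of the core complex (chromosome 7 from 51860577 to 51862267), had 64 and 83 fragments in G1, 137 and 114 for S, and 110 and 85 for G2/M. In CPM the S columns lay above all others by a small margin, and the columns of G1 and G2/M overlapped. The levels of 4.59, 7.0 and 5.38 CPM put it under the 10 CPM minimum. The log2 ratio of S to G1 was 0.61 (interval 0.31 to 0.92) and that of G2/M to S was -0.38 (interval -0.66 to -0.11).

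Fancm, the DNA translocase that anchors the core complex at forks (chromosome 12 from 65075606 to 65132058), had 265 and 260 fragments in G1, 507 and 554 for S, and 408 and 406 for G2/M. The columns of the phases did not overlap, with S highest and G1 lowest, at 29.6, 22.4 and 16.4 CPM in S, G2/M and G1. The log2 ratio of S to G1 was 0.85 (interval 0.70 to 1.01) and that of G2/M to S was -0.40 (interval -0.53 to -0.27). G2/M against G1 gave 0.45 (interval 0.29 to 0.62).

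**Figure D3:**
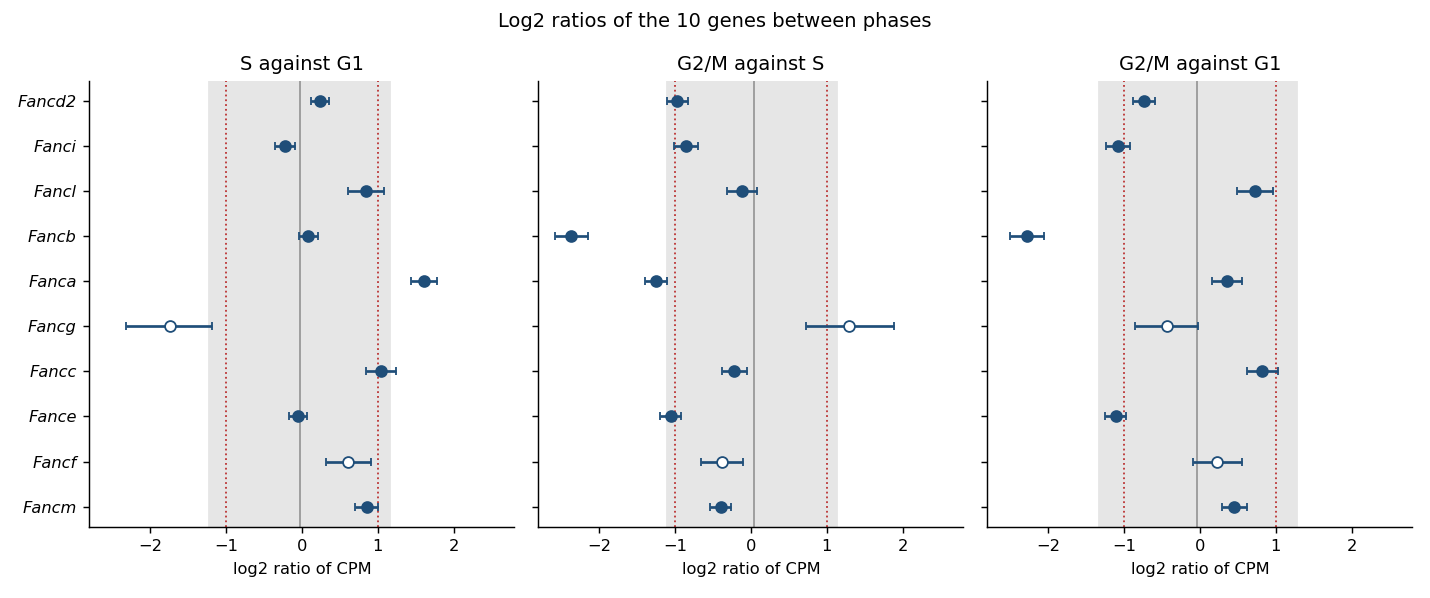
Log2 ratio of CPM for each gene in the 3 comparisons (horizontal axis), with exact 95% intervals for counting error; filled points reached 10 CPM in 1 of the phases compared, open points did not, dotted lines mark 2-fold, and the grey band and line give the 10th to 90th percentile and the median of all genes of the same mean level. For G2/M against S every filled point lies below 0, from -2.36 for Fancb to -0.12 for Fancl.

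Of the 10 genes, 8 reached 10 CPM in 1 of the phases compared and were counted as measured. Between S and G1, Fanca and Fancc were 2-fold or more higher in S, and 0 of 8 were 2-fold lower. Fancc (9.23 CPM in G1) and Fancl (7.11 CPM in G1) reached 10 CPM only in S, the phase where they were higher. The minimum also left out Fancg, whose log2 ratio was -1.73. Over all 8773 measured genes 8.63% were 2-fold higher and 8.59% lower, and over the 2465 genes within the range of mean level of the measured members (10.5 to 29.95 CPM) 13.8% were higher and 14.7% lower. Of the 8 ratios, 6 were above 0, against 48.6% of the genes of the same level. The median of all 8 was 0.54. The genes of the same level had a median of -0.03 and a 10th to 90th percentile of -1.22 to 1.16. Only the ratio of Fanca, among the 8, lay outside that range.

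Between G2/M and S all 8 measured genes lay on the lower side, with a median log2 ratio of -0.91. Fanca, Fancb and Fance were at least 2-fold lower in G2/M and 0 of 8 were higher. Fancb reached 10 CPM only in S, and the minimum left out Fancg, whose log2 ratio was 1.30. The background was 7.12% higher and 6.60% lower over all 8752 measured genes, and 13.2% higher and 12.2% lower over the 2452 of the same level. Those had a median of 0.04, a 10th to 90th percentile of -1.11 to 1.14, and 51.9% of them were above 0. The ratios of Fanca and Fancb lay beyond the 10th percentile and the other 6 lay within it.

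Between G2/M and G1 the measured genes split into equal groups. Fancb, Fance and Fanci were at least 2-fold lower in G2/M and Fancd2 was lower by less, while Fanca, Fancc, Fancl and Fancm lay above 0 by up to 0.82 on the log2 scale. In this comparison Fancb reached 10 CPM only in G1, and Fancc and Fancl only in G2/M. Over all 8850 measured genes 10% were 2-fold higher and 9.81% lower, and over the 2482 of the same level 15.0% were higher and 17.2% lower. The median of the 8 was -0.19 against -0.04 for the genes of the same level, whose 10th to 90th percentile ran from -1.34 to 1.28. Fancb alone lay outside it. The comparisons share libraries, so they are not independent of each other.

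**Figure D4:**
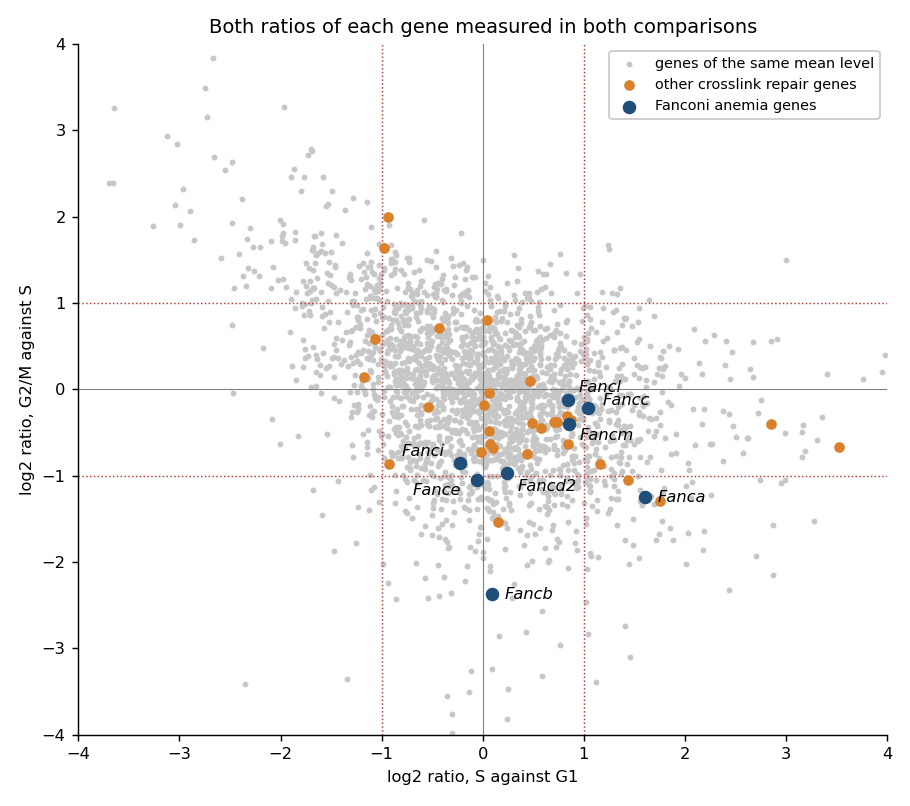
Log2 ratio of S to G1 (horizontal axis) and of G2/M to S (vertical axis), which share the S library, for the 8 measured Fanconi anemia genes, for the other crosslink repair genes measured in both comparisons and for 2402 genes of the same mean level, 7 of which lie outside the axes; dotted lines mark 2-fold. The 8 genes lie below 0 on the vertical axis and spread from -0.23 (Fanci) to 1.61 (Fanca) on the horizontal axis.

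Counting error is a small part of these spreads. For genes of the same level the log2 ratio had a robust SD of 0.92 for S against G1, 0.83 for G2/M against S and 1.00 for G2/M against G1, where counting alone gave a median SD of 0.084, 0.082 and 0.084. The share of genes at least 2-fold apart was smaller at higher level, going from 33.9% at a mean of 10 to 20 CPM to 19.4% at 20 to 40 CPM and 3.0% above 100 CPM for S against G1. Exon length moved with the ratio of S to G1 as well. Genes of the same level with over 4987 bases of exon had a median of 0.17, and those with at most 2918 bases had -0.22. Fanca, Fancc, Fancd2, Fanci and Fancm are in the long class, with a median of 0.85, and Fancb, Fance and Fancl are in the middle class, with a median of 0.09 against -0.05 for that class. For G2/M against S the long class had a median of -0.04 and its 5 members -0.86. The part of length in the members' ratios was not tested.

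**Figure D5:**
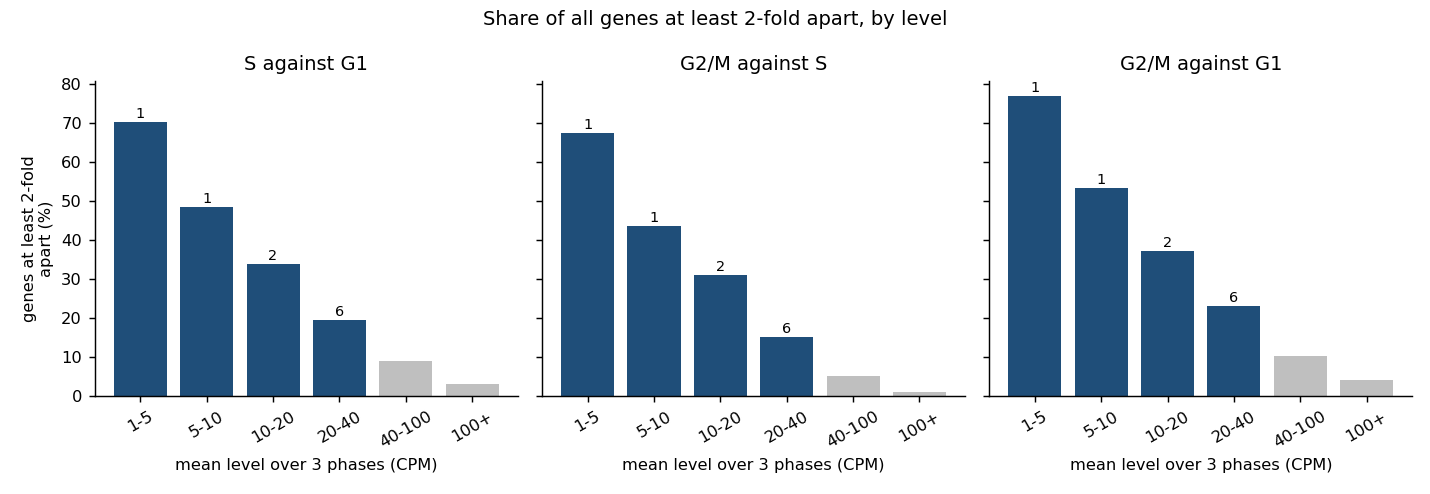
Percent of genes at least 2-fold apart (vertical axis) by mean level over the phases in CPM (horizontal axis) in each comparison; the number above a bar counts the Fanconi anemia genes in that class, and grey bars hold none. For S against G1 the percent goes from 70.2 at 1 to 5 CPM to 3.0 above 100 CPM, and 6 of the 10 genes lie at 20 to 40 CPM.

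The wider set of crosslink repair genes held 37 further genes, all found in the table. Between S and G1, 5 of 31 measured genes were 2-fold or more higher in S (16.1%, against 8.63% of all measured genes). In S 4 were lower (12.9% against 8.59%), and the median log2 ratio was 0.10. Over genes of the members' mean level 13.8% were higher in S and 14.7% lower. The wider genes run over a broader range of level, so neither background is matched to them. Between G2/M and S, 2 of 30 were higher in G2/M (6.67% against 7.12%) and 3 lower (10% against 6.60%). At the members' mean level 13.2% of genes were higher and 12.2% lower. Of the 30 ratios, 22 were below 0, and the median was -0.39, while 50.5% of all measured genes were above 0. Between G2/M and G1, 3 of 29 were higher in G2/M (10.3% against 10% of all measured genes) and 4 lower (13.8% against 9.81%). The median was 0.09, and at the members' mean level 15.0% of genes were higher and 17.2% lower. Many of the called genes reached 10 CPM only in the phase where they were higher. For S against G1 these were Faap24, Ube2t, Eme1 and Dclre1b in S, and Palb2 and Rmi2 in G1. They were Rad51c and Dclre1b for G2/M against S, and Faap24, Ube2t, Cenps and Palb2 for G2/M against G1. For G2/M against S the medians of the members and of the wider set, -0.91 and -0.39, were both below the 0.01 of all measured genes, and that difference was not tested.

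Of the anchor and the ubiquitin cycle, Faap24, which binds Fancm and DNA, stood at 1.97, 14.2 and 10.7 CPM in G1, S and G2/M. It was 7.21-fold higher in S than in G1, a log2 ratio of 2.85 (interval 2.47 to 3.25) that rests on 63 fragments in G1, and 5.44-fold higher in G2/M than in G1. Cenps, a histone-fold protein that also binds Fancm, went the other way, at 33.1, 17.4 and 9.54 CPM, 3.47-fold lower in G2/M than in G1. Ube2t, the conjugating enzyme for Fancd2 and Fanci, stood at 1.40, 16.1 and 10.1 CPM, 11.5-fold higher in S than in G1, a log2 ratio of 3.52 (interval 3.08 to 3.99) that rests on 45 fragments in G1. In G2/M it was 7.23-fold higher than in G1. Usp1, which removes the ubiquitin, had the most CPM of this group and differed little between phases, at 263, 264.4 and 233.7 CPM. Atad5, which helps Usp1 act and unloads the sliding clamp, was 2.26-fold lower in S than in G1, at 40.4 against 91.4 CPM, and 2.05-fold lower in G2/M than in G1.

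Of the downstream genes, Brca1, a ubiquitin ligase of homologous recombination, stood at 68.4, 75.7 and 26.0 CPM in G1, S and G2/M. It was 2.91-fold lower in G2/M than in S, a log2 ratio of -1.54 (interval -1.65 to -1.43), and 2.63-fold lower than in G1. Xrcc2, a homologous recombination protein, was highest in S at 35.7 CPM, 3.37-fold above the 10.6 of G1 and 2.45-fold above the 14.6 of G2/M. Palb2, which links Brca1 and Brca2, was 7.13-fold lower in S than in G1, at 1.90 against 13.5 CPM, and 2.19-fold lower in G2/M than in G1. Rad51c, which also acts in homologous recombination, stood at 26.1 CPM in G2/M against 8.34 in S, which is 3.12-fold higher. Rfwd3, a ubiquitin ligase that acts on RPA, had the most CPM of this group, at 142.9, 98.1 and 84.8 CPM.

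Of the nucleases and polymerases, Eme1, a partner of the nuclease Mus81, was 2.24-fold higher in S than in G1, at 15.6 against 6.99 CPM. Dclre1b, an exonuclease also called Apollo, was highest in S at 16.9 CPM, 2.71-fold above the 6.24 of G1 and 2.07-fold above the 8.19 of G2/M. The crosslink nuclease Dclre1a, with the most CPM of its list, stood at 14.6, 20.5 and 15.6 CPM. Rev1, a translesion polymerase, stood at 46.9 CPM in G2/M against 11.8 in S, which is 3.98-fold higher, and was 2.08-fold higher than in G1. Rad18, a ubiquitin ligase that acts on the sliding clamp and has the most CPM of its list, stood at 47.5, 78.9 and 60.8 CPM. Rmi1 and Rmi2, which act with the helicase Blm, were 2.09-fold and 3.51-fold lower in S than in G1, while Blm itself stood at 20.4, 36.6 and 23.6 CPM.

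The genes whose pair of log2 ratios (S to G1 and G2/M to G1) lay nearest to those of the 3 members with the highest mean CPM were taken from 6818 candidates whose mean reached 20 CPM, over these 3 libraries. For Fance they were Spaca6, Mfsd14a and Cdc16, at distances of 0.045, 0.050 and 0.085 on the log2 scale. For Fancd2 they were Phlda3, Exosc2 and Tnfaip3, at 0.020, 0.029 and 0.030. For Fanci they were Sdhaf2, Ndufb11 and Notch2, at 0.014, 0.042 and 0.044. With 3 points per gene many genes are near any pattern.

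In all, 6 of the genes share exon bases with a gene on the opposite strand, and the counting names no strand option, so fragments there cannot be assigned to a strand. No option for overlapping genes is named either, and whether fragments in the shared bases were left out of the counts was not checked. The overlap covers 15.99% of the exon bases of Fanci (with Polg), 15.0% of Fancf (Gas2), 13.7% of Fancl (Vrk2), 7.68% of Fanca (Zfp276), 3.24% of Fancd2 (Fancd2os) and 2.35% of Fancc (2010111I01Rik). Polg was well expressed, with 2955, 3001 and 2514 fragments in G1, S and G2/M. Fancb, Fance, Fancg and Fancm have no such overlap. Only annotated exons were compared, and the part of overlap in the members' ratios was not tested.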

How the data were processed

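RNA-seq of sorted C2C12 fractions was deposited as fragment counts, which featureCounts 1.5.0-p3 summed over the exons of each GRCm38 gene from paired reads, per the file headers. No option for strand, for overlapping genes or for reads with several alignments stands in the command. HISAT2 2.1.0 and SAMtools 1.6 are named per the submitters' processing notes, and reads had 101 cycles, per the labels' protocols. The sources used here do not name trimming.

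Gene identifiers were matched to symbols for 45143 of 46078 genes (98.0%). The 2 columns of a phase were summed, because chi-square of the paired columns over its degrees of freedom stayed under 1.2 in every phase. The common coefficient of variation from edgeR 4.0.16 was 0.988%, the lowest value its estimate can take, so it gives no size for the spread between columns. The G1, S and G2/M libraries then held 32395232, 35822319 and 35907974 fragments, with TMM factors of 0.990, 1.00 and 1.01 (R 4.3.3). Counts under 3 fragments were set to 3, which is 0.094, 0.084 and 0.083 CPM. A gene was measured in a comparison where either phase reached 10 CPM, and called at 2-fold or more. Ratios have exact binomial intervals and levels exact Poisson intervals, which leave out PCR copies and all other error. The script was tested on simulated counts.

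The rule for named genes took all members, of the wider lists every called gene and the gene of highest CPM per list, Ccne2, Cdc6, Ccnb1 and Cdc20, and for the 3 members of highest mean CPM the 3 nearest genes. Myod1, Myf5, Vim, Tubb3, Cd68, Pdgfra, Gm17082 and the genes that overlap a member were named outside it, after their values were seen. The members, the lists and these rules were chosen with earlier results of these data known. DESeq2 1.42.0, edgeR's quasi-likelihood test and other settings were tried as alternatives. Motifs were searched as letters on both strands.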

Additional observations from a re-analysis of the deposited data

How the results depend on the processing

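Of 240 ratios of the 10 genes, from 3 comparisons under the 8 alternatives that can move a ratio, 236 moved by less than their counting interval, and the 4 that moved further were those of Fancf with 1 column of each phase, by up to 0.38. In sign, 2 ratios changed, both with the second column of each phase alone: Fancf for G2/M against G1 (0.23 to -0.15) and Fance for S against G1 (-0.05 to 0.0055). Scaling by DESeq2 size factors, library size alone or a prior of 0.5 fragments changed no call of a member. With 1 column of each phase left out, members called ranged from 1 to 2 for S against G1, from 2 to 3 for G2/M against S and from 3 to 3 for G2/M against G1. Without a minimum level Fancg passed 2-fold as well, for S against G1 and for G2/M against S, and 4411, 4034 and 4518 genes in all were called for S against G1, G2/M against S and G2/M against G1 (1511, 1201 and 1756 with it). The wider genes called were then 8 for G2/M against S and 11 for G2/M against G1 (5 and 7 with it), and the members' median for G2/M against S was -0.63. With a mean of at least 5 CPM over the phases, which adds Fancf, the members' median for G2/M against G1 turned from -0.19 to 0.23. Treating the columns as replicates, edgeR's quasi-likelihood test at an FDR of 0.05 called 8, 9 and 9 members, 30, 34 and 32 wider genes and 10573, 10444 and 10584 genes in all (84.7%, 83.6% and 84.7% of 12489) for S against G1, G2/M against S and G2/M against G1. With the replicate block it called 8, 9 and 8 members, 29, 34 and 32 wider genes and 10573, 10437 and 10574 genes (84.7%, 83.6% and 84.7%). DESeq2 called 8, 7 and 8 members, 27, 32 and 29 wider genes and 9819, 9525 and 9895 genes (74.9%, 72.6% and 75.5% of 13113). These fits compare the libraries and not the phases. Their median for G2/M against S, over all 10 genes, was -0.63 with edgeR, with or without the replicate block, and -0.63 with DESeq2. Deviations of same-numbered columns across phases had correlations of -0.01, 0.03 and 0.02. Columns that differ by little more than counting noise give values near 0 whether paired or not, so pairing cannot be judged from them. The members are few and mostly of 10 to 30 CPM, so depth limits Fancf and Fancg most, and counting intervals say nothing of the spread between cultures.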
